A study of Mus musculus with 37 samples.

Results

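First tumours were compared with later tumours grown from the same clone of mouse pancreatic tumour cells, in 33 of the 37 bulk RNA libraries of the series. The 16 first-tumour libraries are those titled no1 and the library titled no2 of clone bulk_2669c4, which carries the same liver and heart transcripts. The later-tumour libraries are the 17 other libraries of the same 15 clones, titled no2 to no4. All tumours came from cells placed under the skin of C57BL/6 mice, collected at 3 weeks with no treatment given, and no genotype of the cells is stated in the labels. Of the 15 clones, 7 are labelled T cell high (7 first-tumour and 8 later-tumour libraries), 6 low (7 and 7) and 2 intermediate (2 and 2). Neither the tumour number nor the digits in a clone name are explained in the labels. Each clone is 1 cell line, and each library is 1 bulk sample that mixes tumour cells with host cells. The library titled no1 of clone bulk_6422c1, which has no later library here, was left out, as were 3 libraries with no phenotype label.

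Subcutaneous pancreatic tumours consist of ductal-type carcinoma cells, fibroblasts that lay down collagen, vessels and immune cells. Hepatocytes make most plasma proteins, and heart muscle is rich in cardiac myosins, so mRNA of either tissue is a sensitive tracer in a tumour sample. RNA of another tissue in a library also takes up reads, and counts of the tumour's own transcripts then make up a smaller share of the total. In bulk samples, fewer cells of a type and less RNA per cell cannot be told apart.

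Total counts were 7.39 to 102.3 M in the first-tumour libraries, with a median of 29.7 M, and 26.5 to 44.4 M in the later-tumour libraries, with a median of 33.3 M. Levels below are CPM, a gene's counts scaled to a library total of 1 M. Log2 differences are first minus later within clones, from edgeR with TMM scaling, and p-values are adjusted over all genes tested. They measure the spread between these libraries, and because some first-tumour libraries are nearly alike across clones, they are too small. For the same reason, the numbers of clones given below are not numbers of independent replicates. Of 16540 genes tested, 3601 (21.8%) were higher and 5044 (30.5%) lower in first-tumour libraries, so that 52.3% passed the test in 1 direction or the other. The split depends on the scaling: it was 4425 higher and 4060 lower with RLE factors, 4776 and 3630 with total counts alone, and 4642 and 4293 with DESeq2. The median log2 difference of all genes was -0.08 with TMM, 0.00 with RLE and 0.04 with total counts alone. The large differences were all in 1 direction, since 342 genes were at least 16-fold higher and 0 were that much lower among called genes. At 2-fold the counts were 1349 higher and 439 lower.

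Alb (serum albumin), Cps1 (the first enzyme of the hepatic urea cycle), Myh6 (alpha cardiac myosin) and Myl2 (ventricular myosin light chain) placed the libraries in the classes, so their levels are given as a description. Alb was at 330.5, 3995 and 7558 CPM (lowest, median, highest) in first-tumour libraries, against 0, 0.231 and 124 CPM in later-tumour libraries. Cps1 was at 36.9, 489.7 and 899.7 CPM in first-tumour libraries, against 0, 0.0350 and 0.467 CPM in later-tumour libraries. Myh6 was at 65.8, 799 and 1496 CPM in first-tumour libraries, against 0, 0 and 0.0835 CPM in later-tumour libraries. The classes did not overlap for these genes, and Myl2 likewise had 16.5 to 391 CPM in first-tumour libraries, against at most 0.174 CPM in later-tumour libraries. The library just inside the rule was the first of clone bulk_7160c5, with Alb at 330.5 CPM. The one just outside was the later library of clone bulk_6419c1, with Alb at 124 CPM and Myh6 at 0. In GRCm38, Alb lies on chromosome 5 (90460897 to 90476602), Cps1 on chromosome 1 (67123026 to 67231259), Myh6 on chromosome 14 (54941921 to 54966927) and Myl2 on chromosome 5 (122100951 to 122113472).

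**Figure D1:**
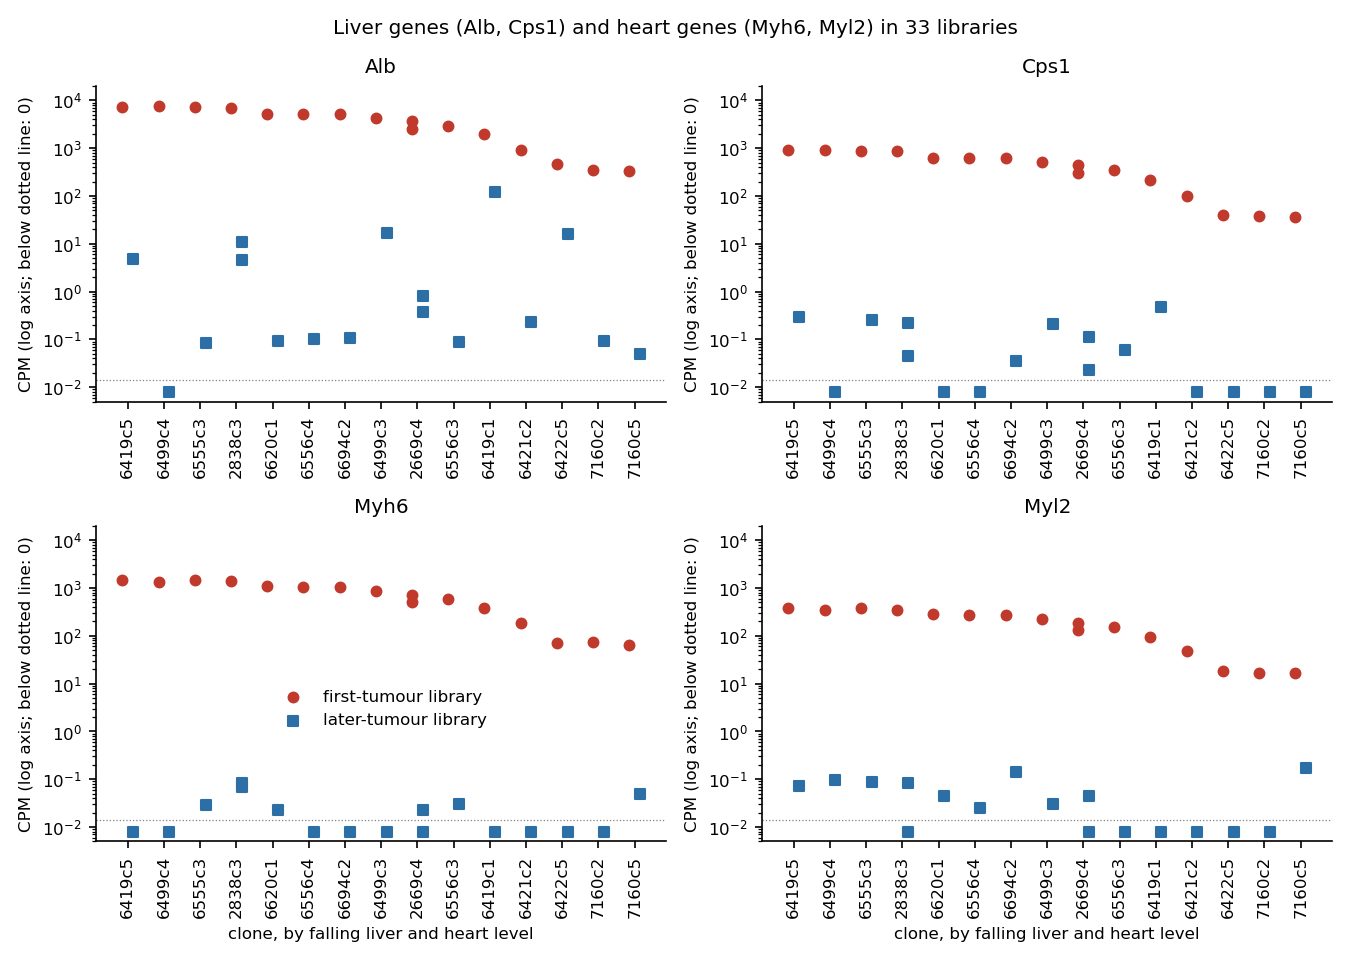
CPM (log axis) of Alb, Cps1, Myh6 and Myl2 in each library, with first-tumour libraries as red circles left of the later-tumour libraries, blue squares, of the same clone. Clones run by falling level, and points below the dotted line are at 0. Alb of the later library of clone bulk_6419c1, at 124 CPM, is the highest later value.

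The level differed between first-tumour libraries in a graded way. Set against the mean of the 4 highest first-tumour libraries, the summed level of the 4 markers was 4.49%, 4.76% and 6.07% in those of clones bulk_7160c5, bulk_7160c2 and bulk_6422c5, and 12.3% in that of clone bulk_6421c2. It was 26.9% to 58.8% in 5 libraries, of clones bulk_6419c1, bulk_2669c4 (both), bulk_6556c3 and bulk_6499c3, and 70.9% to 71.7% in those of clones bulk_6694c2, bulk_6556c4 and bulk_6620c1. The 4 highest libraries, of clones bulk_2838c3, bulk_6555c3, bulk_6499c4 and bulk_6419c5, lay within 96.4% to 101.4% of their mean. High clones were found at both ends of this range, and the 2 intermediate clones were both near the low end. The first libraries of clones bulk_7160c5 and bulk_7160c2 were also the deepest, at 102.3 and 101.4 M, followed by that of clone bulk_6422c5 at 44.6 M. That of clone bulk_6421c2, also low in level, had 18.2 M. Whether the level goes with depth or with the clone was not tested.

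Liver and heart genes kept nearly 1 ratio to each other in all 16 first-tumour libraries, over this range of levels. Myh7 (beta cardiac myosin) stood at 1.81 to 1.92 times the CPM of Myh6, with an SD of 0.02 on the log2 scale. Alb stood at 4.55 to 6.60 times Myh6, and at 4.55 to 5.72 times without the 3 lowest libraries. Cps1 was 0.0857 to 0.124 of Alb, and Myl2 was 0.222 to 0.268 of Myh6. The libraries with little of the liver RNA thus also had little of the heart RNA, in like proportion. Transcripts of skeletal muscle, lung and liver macrophages were also given as ratios. Myh1, the myosin of fast skeletal muscle fibres, was 0.103 to 0.140 of Myh6, Sftpc, the surfactant protein C of alveolar cells in the lung, was 0.00443 to 0.00735 of Myh6, and Clec4f, a lectin of Kupffer cells (the macrophages of the liver), was 0.00122 to 0.00258 of Alb. These ratios are descriptions over libraries that share the transcripts, with no test, and where the transcripts came from was not tested.

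**Figure D2:**
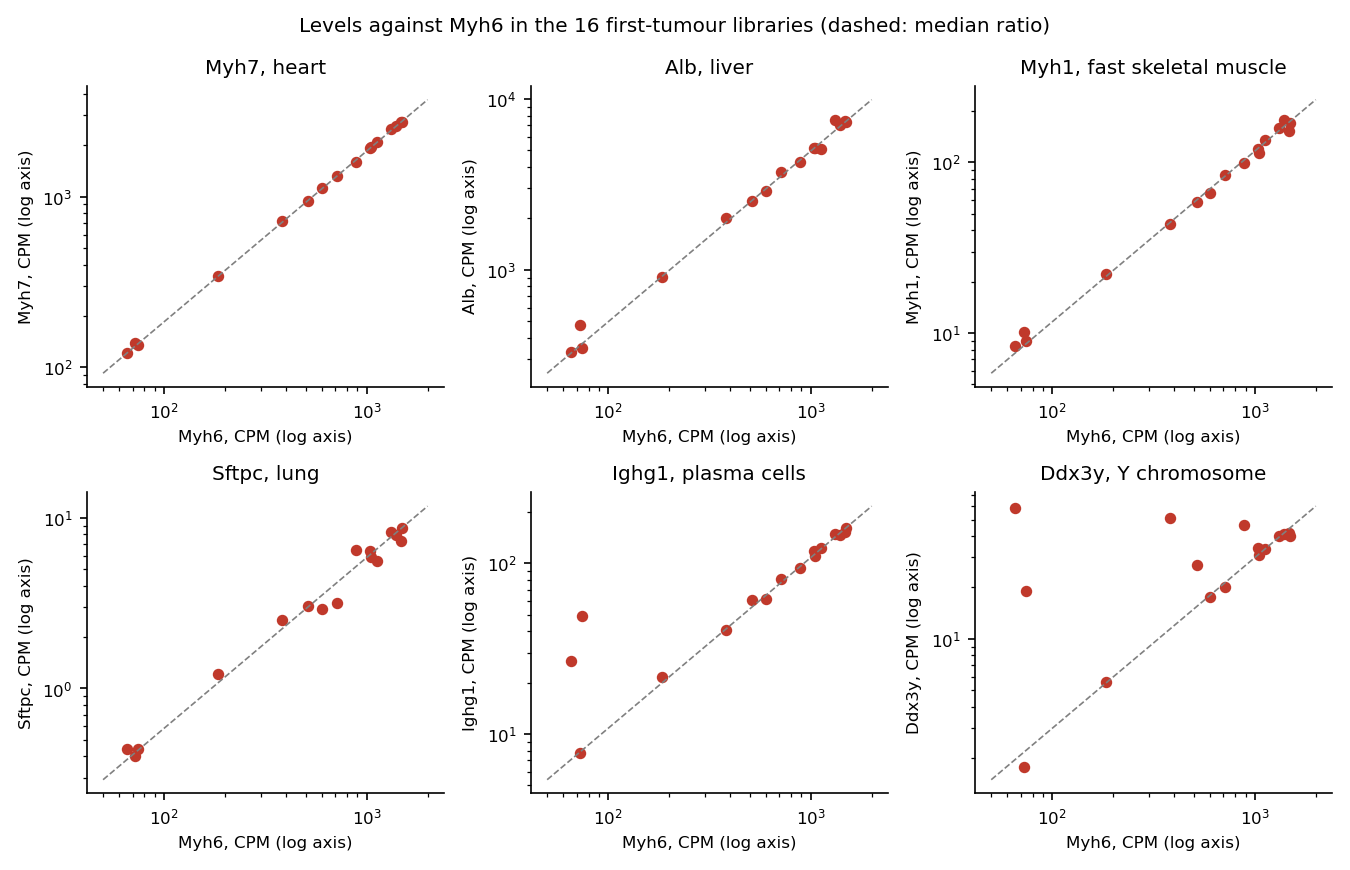
CPM of 6 genes against Myh6 (both log axes) in the 16 first-tumour libraries, each point being 1 library and the dashed line the median ratio. Myh7 stays within 1.81 to 1.92 times Myh6. The points farthest above the line for Ighg1 are clones bulk_7160c2 and bulk_7160c5, and those farthest above it for Ddx3y are the same 2 clones and bulk_6419c1.

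Nearly all genes tested of liver, heart and fast muscle were higher. Of 34 hepatocyte genes tested, 32 were higher and 0 lower in first-tumour libraries, with a median log2 difference of 9.16 against -0.08 over all genes. Of 23 heart muscle genes 22 were higher (median 6.85), of 4 ventricular genes 4, of 3 atrial genes 2 and of 13 fast skeletal muscle genes 12 (median 3.15). The exception among heart genes was Gata4, a transcription factor also present in the tumours, which was lower at -0.28 with TMM and passed in neither direction with the other scalings. Of the 10 genes of liver macrophages and sinusoidal endothelium 9 were higher (median 4.08). Hepatocyte and heart genes are those that defined the classes, so these counts describe the material and are not independent evidence. Without the 4 highest clones the counts were 32 of 34 for hepatocytes, 22 of 23 for heart muscle, 8 of 9 for liver macrophages and sinusoids and 11 of 13 for fast muscle.

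Fga and Fgb, the fibrinogen chains, were among the most abundant of the liver set. Fgb had 119.6, 1393 and 2647 CPM in first-tumour libraries, against 0, 0.418 and 51.8 CPM in later-tumour libraries, and the classes did not overlap. Mat1a, the liver's methionine adenosyltransferase, had 51.6, 648 and 1200 CPM in first-tumour libraries, against at most 0.0992 CPM in later-tumour libraries. Tat, a tyrosine aminotransferase that glucocorticoids induce in liver, had 31.5 to 704 CPM in first-tumour libraries, against at most 0.108 CPM in later-tumour libraries. Saa2, an acute-phase protein whose reads may be shared with its close copy Saa1, had 1.12, 12.3 and 24.6 CPM in first-tumour libraries, against at most 0.114 CPM in later-tumour libraries. Each of these 4 genes was higher in 15 of 15 clones, a direction that goes with how the classes were set.

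Not every liver gene was higher. Hnf4a, a transcription factor of liver and gut epithelium that the tumours also express, had 156, 282 and 326 CPM in first-tumour libraries, against 136, 242 and 360.4 CPM in later-tumour libraries (log2 difference 0.04, SE 0.10, adjusted p = 0.79). Fabp1, a fatty acid carrier that is abundant in hepatocytes, was at 0.0720, 0.724 and 3.12 CPM in first-tumour libraries and at 0.0652, 0.226 and 6.88 CPM in later-tumour libraries, with an adjusted p of 0.488. Per kilobase of exon, the mean of the 4 highest libraries was 3130 CPM for Alb, 1178 for Apoa1 and 1.72 for Fabp1. Mup20, a major urinary protein made by the liver, was at 0.0690 to 2.10 CPM in first-tumour libraries, against at most 0.180 CPM in later-tumour libraries, and was too low to be tested. Mup genes are near-identical copies, and the sources used here do not give how reads that fit several genes were counted. Cyp7a1, the rate-limiting enzyme of bile acid synthesis, was at 0.202 to 6.63 CPM in first-tumour libraries, against at most 0.143 CPM in later-tumour libraries.

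Among genes of the heart lists, ventricular ones stood well above atrial ones. Skeletal muscle genes were present too, with Acta1 at 121 and Myh1 at 26.0 CPM per kilobase in the 4 highest libraries. How much of each level below came from heart and how much from other muscle was not tested. Per kilobase, in the 4 highest libraries, Myh7 stood at 306 CPM, Myh6 at 212, Myl2 at 191 and Myl3 at 119. The atrial peptide gene Nppa stood at 34.0, the atrial channel gene Kcnj5 at 1.52, and the atrial light chains Myl4 and Myl7 at 0.336 and 0.260 CPM per kilobase. Nppa had 1.57, 16.4 and 31.4 CPM in first-tumour libraries, against at most 0.147 CPM in later-tumour libraries. Myl4 did not follow it, with 0.483 to 2.20 CPM in first-tumour libraries and 0.560 to 1.95 CPM in later-tumour libraries (log2 difference -0.03, SE 0.15, adjusted p = 0.894). Des, the intermediate filament of all muscle, had 22.7, 194 and 359.9 CPM in first-tumour libraries, against 3.13, 7.20 and 21.1 CPM in later-tumour libraries (log2 difference 4.09, SE 0.34). As heart transcripts set the classes, its lack of overlap describes the material. Among fast muscle genes, Acta1 (skeletal actin) had 13.1, 100.1 and 199 CPM in first-tumour libraries, against 1.74, 3.73 and 14.97 CPM in later-tumour libraries.

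Among other tissues, lung, plasma cells, mesothelium and white fat had members that were higher, where 21.8% of all genes were higher. So did neurons and glia (5 of 10), fetal genes (2 of 3), stomach (2 of 8), epidermis (1 of 5) and small intestine (1 of 11). Pancreas and kidney had 0 with TMM. These lists are short. Of 7 lung genes tested 3 were higher, all surfactant proteins. Sftpc had 0.403, 4.37 and 8.66 CPM in first-tumour libraries, against 0, 0 and 0.0715 CPM in later-tumour libraries, and did not overlap (log2 difference 7.87, SE 0.41, adjusted p = 1.25e-12). Of 8 plasma cell genes 6 were higher, 5 immunoglobulin constant regions, which resemble each other and are uncertain, and Igj, the joining chain. Ighg1, the constant region of an IgG heavy chain, had 7.76, 87.1 and 160.5 CPM in first-tumour libraries, against 0, 1.15 and 32.1 CPM in later-tumour libraries (log2 difference 5.39, SE 0.75, adjusted p = 5.2e-06). Its ratio to Myh6 was 0.102 to 0.118 over 13 first-tumour libraries and reached 0.664 among the 3 lowest, where clone bulk_7160c2 had 32.1 CPM of Ighg1 in its later library too. The variable segment Igkv4-72 also went with the heart gene, at 0.00683 to 0.0149 of Myh6. Of 6 B cell genes, 1 was higher: Cd79a, a chain of the B cell receptor, at 0.73 (SE 0.25, adjusted p = 0.0188, and 0.124 without pairing by clone).

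Of 7 white fat genes 4 were higher. Plin4, a coat protein of lipid droplets that muscle also makes, had 4.74, 38.6 and 71.5 CPM in first-tumour libraries, against 0.570, 3.40 and 19.9 CPM in later-tumour libraries (log2 difference 3.25, SE 0.36, adjusted p = 2.36e-07). The adipocyte hormone Adipoq was at most 0.948 CPM in first-tumour libraries and at most 0.330 CPM in later-tumour libraries, too low to be tested. All 4 mesothelial genes tested were higher, among them Msln (mesothelin), which these tumours also express, with 569, 1237 and 2144 CPM in first-tumour libraries and 189.7, 599 and 1945 CPM in later-tumour libraries. Wt1, a transcription factor of mesothelium, was higher by 2.75 (SE 0.44, adjusted p = 2.44e-05, and 0.788 without pairing by clone), although clone bulk_6422c5 had 76.3 CPM of it in its first library and 114 CPM in its later library. Of 11 genes of the small intestine 1 was higher, Apoa4, a lipoprotein gene of gut and mouse liver, with 0.919, 12.1 and 22.4 CPM in first-tumour libraries, against at most 0.124 CPM in later-tumour libraries.

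In the pancreas lists, 0 of 4 acinar genes tested and 0 of 2 islet genes tested were higher. The islet hormones Ins1, Ins2 and Gcg were at most 0.0734 CPM in any first-tumour library and at most 0.0736 CPM in any later-tumour library. None of the 15 testis genes was high enough to be tested, and 0 of 5 kidney genes tested were higher. With DESeq2 2 kidney genes were higher, and 1 was with total counts alone or without the 4 highest clones. Among 10 red blood cell genes 0 were higher and 2 lower, and Hbb-bs, the adult beta globin, had 28.9, 119 and 1293 CPM in first-tumour libraries and 41.6, 139 and 1483 CPM in later-tumour libraries. Of 10 neuronal genes 5 were higher and 2 lower. The log2 difference of the neuronal gene Stmn2, 1.65 with clones paired, was -0.99 without the pairing.

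Beyond the lists, 27 genes had at most 3 counts in every later-tumour library and a mean of at least 20 CPM in the 4 highest first-tumour libraries, a choice made after the levels were seen. Liver genes among them are Hamp, which encodes the iron hormone hepcidin, Hrg, a histidine-rich plasma protein, the apolipoprotein genes Apoc3 and Apoa5, the complement genes C8a and C8b, and cytochromes P450 such as Cyp2a12, Cyp2c50 and Cyp3a25. The 27 include 7 genes of the hepatocyte list and 1 of the heart list, and 19 are in no list. All 27 were detected in all 16 first-tumour libraries. Together they took up 0.546% to 0.577% of the counts in the 4 highest libraries.

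Other abundant genes in no list were higher as well. C3, the central complement component, had 559.7, 2342 and 3872 CPM in first-tumour libraries, against 118, 344 and 3915 CPM in later-tumour libraries, with overlap (log2 difference 2.28, SE 0.35, adjusted p = 1.79e-05). Lpl, the lipoprotein lipase of heart, muscle and fat, had 81.0, 823 and 1531 CPM in first-tumour libraries, against 15.4, 35.6 and 117 CPM in later-tumour libraries. Chi3l3, a chitinase-like protein of alternatively activated macrophages, had 40.3, 542 and 921 CPM in first-tumour libraries, against 1.59, 7.69 and 55.9 CPM in later-tumour libraries (log2 difference 5.20, SE 0.47, adjusted p = 1.58e-08). The plasma protein genes Hp (haptoglobin), Hpx (hemopexin), Pzp (an alpha-macroglobulin) and Gc (vitamin D-binding protein) were higher by 4.05, 8.65, 4.80 and 4.13 on the log2 scale.

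Genes of the Y chromosome were found with the shared transcripts too. In 10 clones the later-tumour libraries, 12 in all, had at most 0.338 CPM of Ddx3y, an RNA helicase encoded on the Y chromosome. The 11 first-tumour libraries of these clones had 1.77, 34.0 and 51.0 CPM of it (lowest, median, highest). Its ratio to Myh6 in the 11 had a median of 0.0297 and a range of 0.0245 to 0.133, and the highest was in clone bulk_6419c1, with 51.0 CPM of Ddx3y in its first library and 0 in its later library. The other 5 clones had 5.56 to 58.1 CPM in first-tumour libraries and 11.8 to 47.7 CPM in later-tumour libraries. Xist, the noncoding RNA of the inactive X chromosome, was at 1.93, 296 and 2744 CPM in first-tumour libraries and at 0.434, 479 and 2240 CPM in later-tumour libraries, and did not pass the test (log2 difference 0.07, SE 0.56, adjusted p = 0.928). The 4 highest libraries had 39.8 to 41.6 CPM of Ddx3y together with 163 to 518 CPM of Xist.

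**Figure D3:**
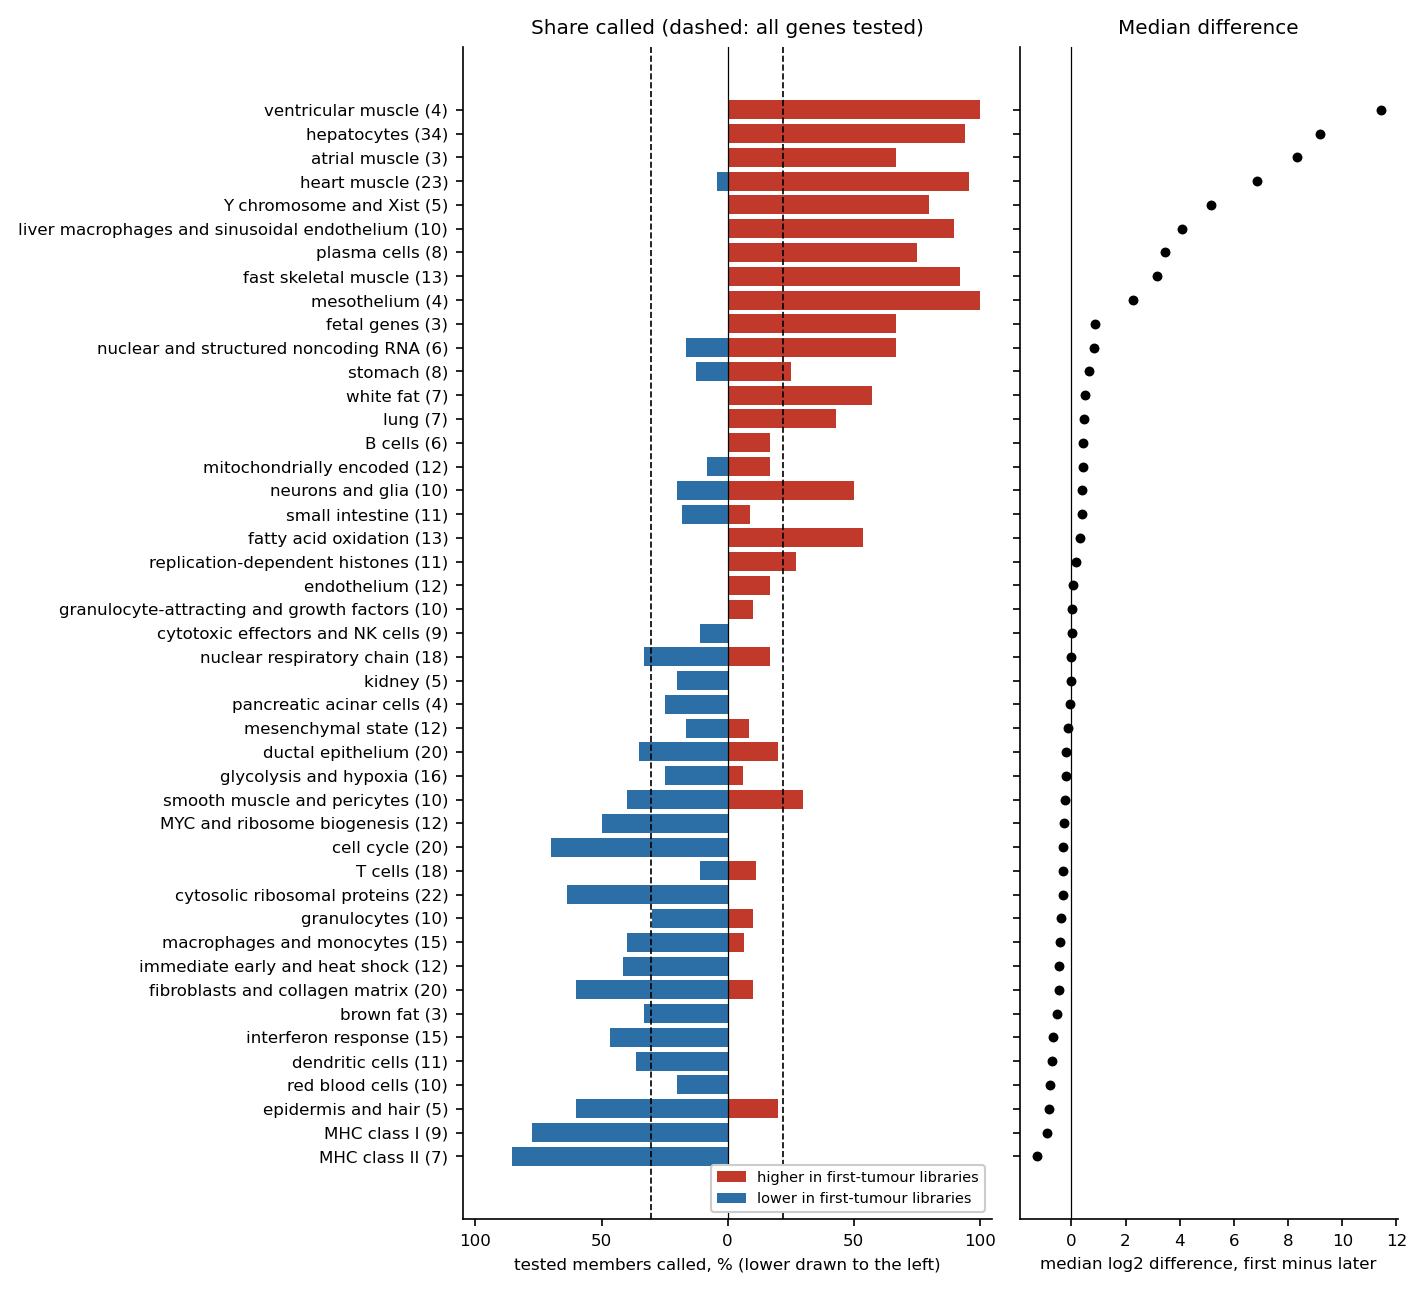
Gene lists with at least 3 genes tested (number in brackets), by falling median log2 difference. Left, the percentage of tested members higher (red) and lower (blue) in first-tumour libraries, with dashed lines at 21.8% and 30.5% for all genes; right, the median log2 difference. Ventricular muscle is first at 11.41, hepatocytes follow at 9.16, and MHC class II is last at -1.27.

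Which genes of tumour, stroma and immune cells were lower was asked next, with 30.5% of all genes lower as the background. The 4 highest libraries, each of another clone, held several of these genes at nearly 1 level. In them the ductal keratin gene Krt19 was at 995 to 1107 CPM and the collagen gene Col1a1 at 913 to 1087 CPM. In later libraries of the same clones Krt19 was at 683 to 2289 CPM and Col1a1 at 3042 to 9199 CPM. How much of a first-tumour level came from the clone's own tumour was not tested. The hepatocyte list summed to 1430 to 25045 CPM in first-tumour libraries, against 304 to 1640 CPM in later-tumour libraries. The heart muscle list summed to 384 to 5352 CPM, against 179 to 604 CPM. Genes of these tissues outside the lists were not summed, and how far their reads lower other genes was not tested. Of 20 fibroblast and matrix genes 12 were lower and 2 higher, with a median log2 difference of -0.47. Col1a1, the main chain of collagen I, had 387, 1067 and 8620 CPM in first-tumour libraries, against 2291, 4794 and 13689 CPM in later-tumour libraries. It was lower in 15 of 15 clones, with overlap between the classes (log2 difference -2.16, SE 0.21, adjusted p = 5.45e-08). Clones bulk_7160c2 and bulk_7160c5 kept the highest levels, at 5280 and 8620 CPM in first-tumour libraries, against 5726 and 13689 CPM in later-tumour libraries. Col1a2, the other chain of collagen I, was lower by a log2 difference of -1.25 (SE 0.18, adjusted p = 8.23e-06). Tnc, the matrix protein tenascin C, and Serpinh1, a collagen chaperone, were lower at -1.20 (SE 0.20) and -1.07 (SE 0.14). The proteoglycans Dcn and Lum went the other way, and Dcn had 78.5, 189 and 267 CPM in first-tumour libraries, against 32.9, 82.5 and 234 CPM in later-tumour libraries (log2 difference 0.93, SE 0.14, adjusted p = 1.54e-05). The fibroblast surface genes Pdgfra and Fap did not pass the test, with log2 differences of -0.20 (SE 0.12) and -0.22 (SE 0.24).

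Genes of antigen presentation were lower as well. Of 9 MHC class I pathway genes 7 were lower and 0 higher (median -0.89), and without the 4 highest clones the counts were the same 7 and 0. In that setting 3517 of 16352 genes were lower in all. Tapbp (tapasin, which loads peptide onto class I) had 79.9, 118 and 224 CPM in first-tumour libraries, against 118, 215 and 313 CPM in later-tumour libraries (log2 difference -0.89, SE 0.10, adjusted p = 1.88e-07). It was lower in 15 of 15 clones, as was the class I heavy chain gene H2-K1 (-0.96, SE 0.13, adjusted p = 4.82e-06), whose relatives are similar in sequence. B2m, the light chain, did not pass the test at -0.19 (SE 0.20, adjusted p = 0.454). Of 7 class II genes 6 were lower (median -1.27), and 5 of 7 without the 4 highest clones. H2-Ab1, a class II chain, had 30.02, 86.9 and 653 CPM in first-tumour libraries, against 84.9, 247 and 1060 CPM in later-tumour libraries (log2 difference -1.36, SE 0.28, adjusted p = 0.000322). Of 15 interferon response genes 7 were lower and 0 higher, and 5 without the 4 highest clones, among them Isg15, a ubiquitin-like protein, at -1.10 (SE 0.26, adjusted p = 0.00142).

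Immune cell genes were divided, and the shares lower among dendritic cell and granulocyte genes lay near the 30.5% of all genes. Of 15 macrophage and monocyte genes 6 were lower, among them C1qa, a chain of complement C1q, at -0.87 (SE 0.18, adjusted p = 0.00037). The arginase gene Arg1, which liver and macrophages both express, was higher in 15 of 15 clones, with 158, 359.9 and 477 CPM in first-tumour libraries and 102, 148 and 435 CPM in later-tumour libraries. Of 11 dendritic cell genes 4 were lower, and Batf3, a transcription factor of cross-presenting dendritic cells, was lower in 15 of 15 clones at -1.60 (SE 0.26, adjusted p = 2.69e-05). Of 10 granulocyte genes 3 were lower and 1 higher. Of these, Mmp9, a protease of neutrophil granules, stood at -1.37 (SE 0.26), while Csf3r and Cxcr2 lost their call under several settings, such as leaving out clone bulk_2669c4 (adjusted p = 0.0962 and 0.0709). Without the 4 highest clones 4 of 15 macrophage, 2 of 11 dendritic cell and 1 of 10 granulocyte genes were lower, against 3517 of 16352 genes in all. Of 18 T cell genes 2 were higher and 2 lower, below the background in both directions, and Cd8a, a chain of the CD8 co-receptor, had 0.0495, 0.422 and 6.50 CPM in first-tumour libraries and 0.0350, 0.630 and 6.10 CPM in later-tumour libraries (log2 difference -0.54, SE 0.49, adjusted p = 0.371).

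Among 10 chemokines and growth factors of granulocytes, 1 was higher with TMM and 2 were with RLE, with total counts alone and with DESeq2. Cxcl1, which attracts neutrophils, had 9.03, 28.6 and 87.1 CPM in first-tumour libraries, against 1.14, 9.79 and 35.1 CPM in later-tumour libraries. The classes overlapped, and it was higher in 15 of 15 clones (log2 difference 1.79, SE 0.32, adjusted p = 9.53e-05). The 4 highest libraries held it at 25.5 to 27.2 CPM. Cxcl2, from the same family, stood at -0.50 (SE 0.36, adjusted p = 0.258).

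Of 20 ductal epithelial genes 4 were higher and 7 lower, shares close to those of all genes. Sox9, a transcription factor of duct cells, had 20.5, 51.3 and 130.3 CPM in first-tumour libraries, against 25.8, 114 and 199.9 CPM in later-tumour libraries, and was lower in 15 of 15 clones (log2 difference -1.12, SE 0.13, adjusted p = 4.47e-07). Krt19, a keratin of ductal cells, had 589, 989 and 1380 CPM in first-tumour libraries, against 683, 1346 and 2289 CPM in later-tumour libraries (log2 difference -0.56, SE 0.12, adjusted p = 0.000559). The keratin genes Krt7 and Krt18 did not pass the test, at 0.03 (SE 0.18) and -0.18 (SE 0.09). Higher were Lcn2, an iron-scavenging protein of inflamed epithelium and liver, and the tight junction gene Cldn3. Lcn2 had 35.8, 188 and 283 CPM in first-tumour libraries, against 5.70, 22.3 and 207 CPM in later-tumour libraries (log2 difference 2.42, SE 0.31, adjusted p = 1.51e-06). Cldn3 was 0.0589 to 0.126 of Myh6 in 13 first-tumour libraries and reached 1.96 times Myh6 among the 3 lowest. Cldn3 and Lcn2 were higher in 15 of 15 clones each.

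**Figure D4:**
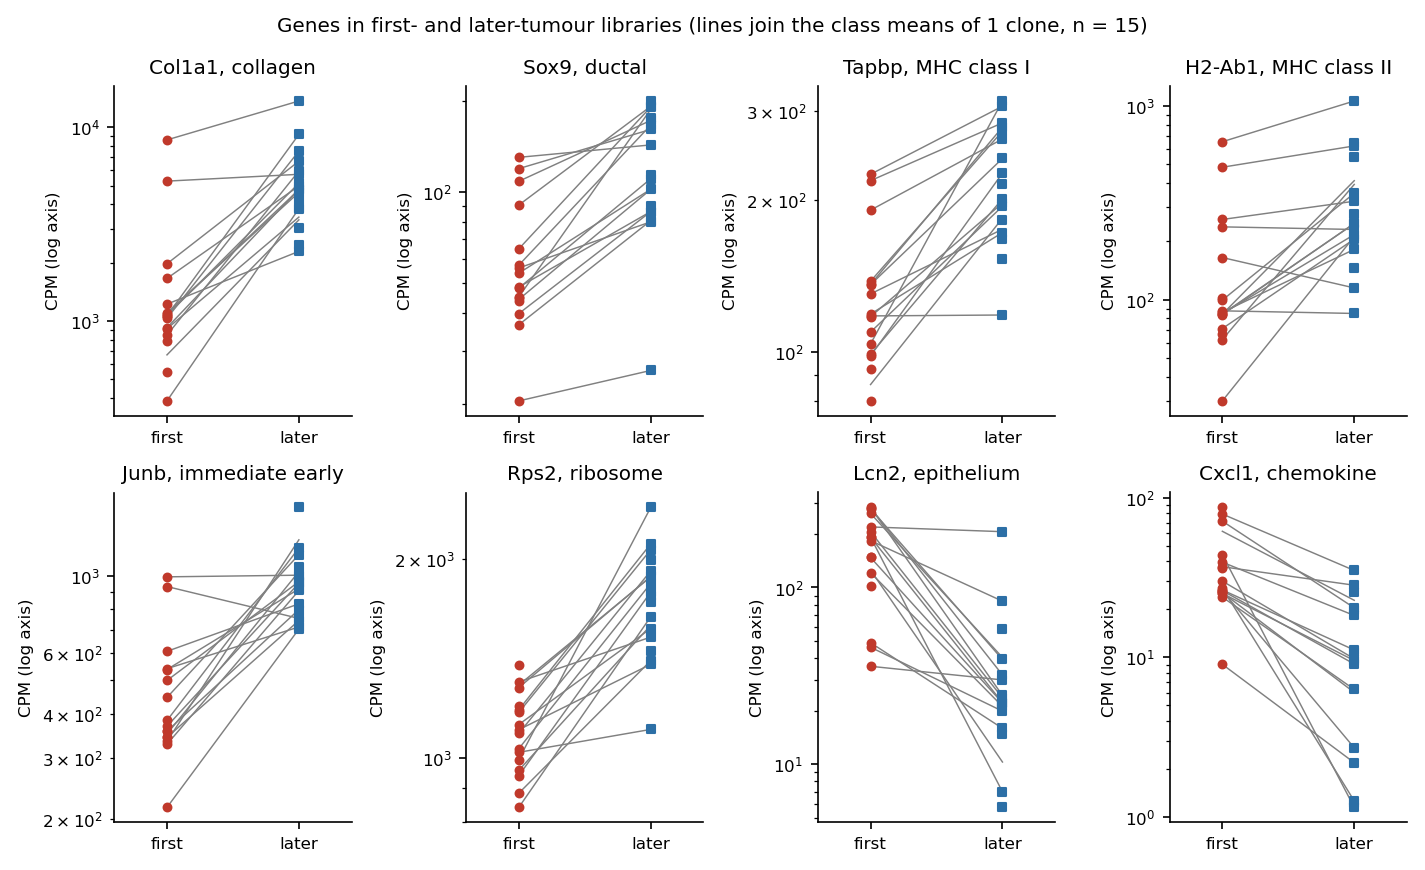
CPM (log axis) of 8 genes in the 16 first-tumour libraries (red, left) and the 17 later-tumour libraries (blue, right), with lines joining the class means of each of the 15 clones. Col1a1, Sox9, Tapbp and Rps2 fall below their later level in all 15 clones, and Lcn2 and Cxcl1 lie above it in all 15.

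Growth genes had small differences, and here the scaling mattered. Of 20 cell cycle genes 14 were lower with TMM, 8 with RLE, 7 with total counts alone and 10 with DESeq2, and at most 1 was higher. Plk1, a mitotic kinase, had 20.04, 31.7 and 46.9 CPM in first-tumour libraries, against 30.6, 50.8 and 71.6 CPM in later-tumour libraries (log2 difference -0.82, SE 0.08, adjusted p = 9.1e-08). Of 22 genes of cytosolic ribosomal proteins 14 were lower with TMM, with RLE and with DESeq2, 12 with total counts alone, and 0 were higher. Rps2 had 841, 1096 and 1381 CPM in first-tumour libraries, against 1104, 1763 and 2397 CPM in later-tumour libraries, and was lower in 15 of 15 clones (log2 difference -0.78, SE 0.08, adjusted p = 1.34e-07). Of 12 MYC and ribosome biogenesis genes 6 were lower, 5 with each of the other scalings, and Myc itself stood at -0.11 (SE 0.12, adjusted p = 0.434). Of 16 genes of glycolysis and hypoxia 4 were lower and 1 higher, 2 were lower with RLE, and 8 were lower without the 4 highest clones.

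Of 12 immediate early and heat shock genes 5 were lower with each scaling. Junb, a subunit of the transcription factor AP-1, had 216, 376 and 992 CPM in first-tumour libraries, against 702, 951 and 1569 CPM in later-tumour libraries (log2 difference -1.20, SE 0.16, adjusted p = 3.01e-06). Fos, another subunit, did not pass the test at -0.23 (SE 0.22, adjusted p = 0.407). Among unlisted abundant genes, the actin-binding Pfn1 and Tmsb10, the RNA-binding Hnrnpa0 and the protease inhibitor Spint2 were lower in 15 of 15 clones each, by log2 differences of -1.06, -1.35, -1.29 and -1.17. Pfn1 had 399, 644 and 764 CPM in first-tumour libraries, against 748, 1194 and 1804 CPM in later-tumour libraries, so that the classes barely overlapped.

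Of 6 nuclear and structured noncoding RNAs 4 were higher and 1 lower. Rmrp, the RNA of the RNase MRP enzyme, had 1.08, 2.60 and 10.1 CPM in first-tumour libraries, against 0.174, 0.322 and 1.53 CPM in later-tumour libraries (log2 difference 2.55, SE 0.26, adjusted p = 8.22e-08). Rn7sk and Rpph1, also short RNAs made by RNA polymerase III, were higher by 1.43 (SE 0.18) and 1.15 (SE 0.15), each in 15 of 15 clones. In the 4 highest libraries Rmrp was at 2.11 to 3.19 CPM, and its highest level, 10.1 CPM, was in the first library of clone bulk_6556c3, which held 40.0% of the liver and heart level. Of 13 genes of fatty acid oxidation 7 were higher and 0 lower, and 10 or 11 with the other scalings. They were led by Ppara, the lipid-sensing nuclear receptor of liver and heart, at 3.99 (SE 0.43). As transcripts of these tissues set the classes, its difference describes the material. Of 12 endothelial genes 2 were higher, Tek and Ptprb, and Pecam1 and Cdh5 did not pass the test, at 0.14 (SE 0.12) and 0.03 (SE 0.12).

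How much of a clone's later profile its first library held was described with genes that the 4 highest libraries barely have. For each clone, genes were taken with at least 20 CPM in its later libraries and at most 1/8 of that level in the mean of the 4 highest first-tumour libraries, a choice made after the data were seen. The rule does not ask that a gene be particular to 1 clone, and Tff2, Prom1 and the globin gene Hbb-bt were taken in several. The genes were also chosen for a high later level, the level they are set against. For each of the 4 highest libraries the genes were chosen on the mean of the other 3, which it closely resembles. A median near or below 1/8 of the later level therefore followed from the choice, and these 4 had 8.69% to 9.03%. In the first libraries of clones bulk_7160c5 and bulk_7160c2, which were also the deepest, the median gene kept 89.1% (98 genes) and 80.9% (74 genes). In those of clones bulk_6421c2, bulk_6419c1 and bulk_6499c3 it kept 61.8% (36 genes), 40.4% (25 genes) and 24.3% (36 genes). In clone bulk_6422c5, whose liver and heart level was as low as in clones bulk_7160c2 and bulk_7160c5, it kept 45.9% (15 genes). In clones bulk_6694c2, bulk_6556c4 and bulk_6620c1 it kept 34.1% (6 genes), 15.2% (27 genes) and 25.3% (34 genes), and in clone bulk_6556c3 70.9%, over 7 genes only. In clone bulk_2669c4 the libraries at 34.6% and 50.8% of the liver and heart level kept 35.5% and 43.2% (14 genes each).

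**Figure D5:**
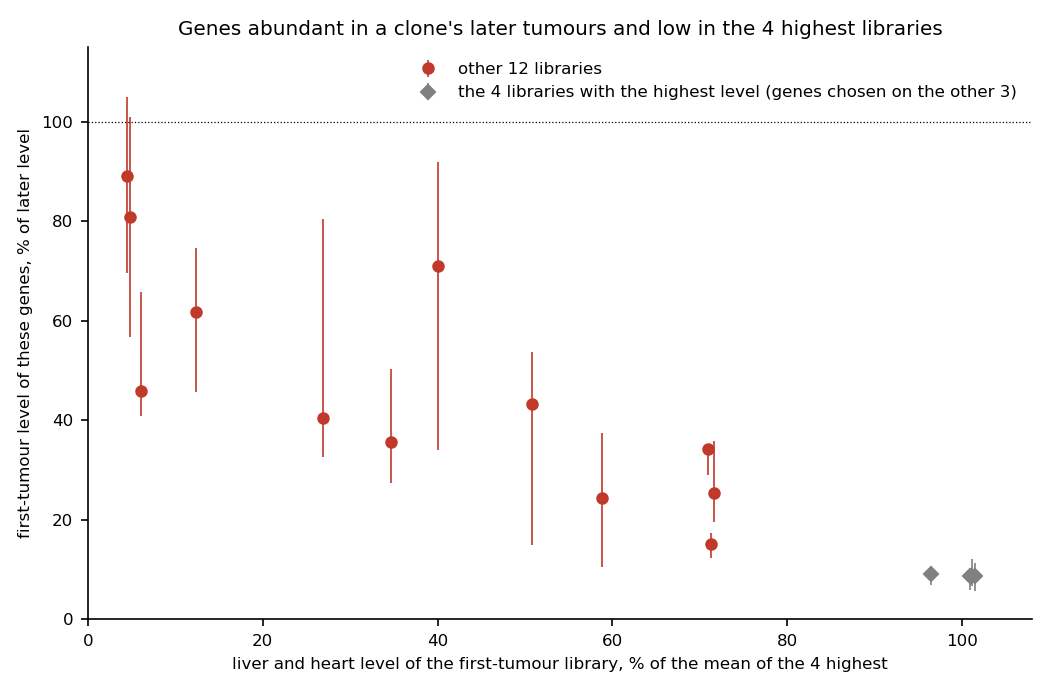
Level of genes abundant in a clone's later tumours and low in the 4 highest libraries, in its first-tumour library, as a percentage of their later level (median and quartiles over genes) against the liver and heart level of that library, 1 point per first-tumour library. For the 4 highest libraries (grey) the genes were chosen on the other 3, which they closely resemble, so their low values follow from the choice. Clones bulk_7160c2 and bulk_7160c5 keep 80.9% and 89.1%.

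Single genes showed the size of the difference. Rhox5, a homeobox gene of the X chromosome, was at 0.325 CPM in the first library of clone bulk_6419c5, against 385 CPM in its later library. Reg1, a secreted protein of regenerating pancreas, was at 4.01 CPM in the first library of clone bulk_6555c3, against 1055 CPM in its later library. Prom1, a surface protein of progenitor cells, was at 82.7 CPM in the same first library, against 1290 CPM in the later one, and at 689.8 CPM in the first library of clone bulk_7160c2, against 747 CPM in its later library. Crisp1, a secreted cysteine-rich protein, was higher in the first library of clone bulk_6419c1, at 3202 CPM, than in its later one, at 850.2 CPM, and Sptssb likewise, at 286 and 168 CPM. The 4 highest libraries had 5.35 to 17.2 CPM of Crisp1. Which part of such differences lies between 2 tumours of 1 clone, apart from the shared transcripts, was not tested.

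Whole profiles were also ranked, as a description. The 4 highest first-tumour libraries, from 3 high clones and 1 low clone, correlated with each other at a Spearman rho of 0.995 to 0.996 over 16540 genes. Later libraries of different clones correlated at 0.925 to 0.982 (134 pairs), and the 2 pairs of later libraries from 1 clone at 0.972 and 0.988. All 16 first-tumour libraries correlated more closely with a first-tumour library of another clone than with any later library, a ranking that includes the liver and heart genes. For clone bulk_6421c2 the margin was only 0.9621 against 0.9619. Those of clones bulk_7160c2 and bulk_7160c5, with the lowest liver and heart levels and the greatest depth, were closest to each other, at 0.986. Over the 15122 genes outside the tissue lists and not called more than 2-fold higher, the same ranking held for 14 of 16. The first libraries of clones bulk_6421c2 and bulk_7160c5 were then closer to their own later library, at 0.978 and 0.990, than to any first library of another clone, at 0.964 and 0.985. Over all genes, among the later libraries, their own clone's ranked highest for 8 of 15 clones. It did so for 9 of 15 over the 15122 genes. Clone bulk_2838c3 is counted in both, but its match is not particular to it. Over all genes its no2 library also ranked highest for clones bulk_6419c5, bulk_6499c4, bulk_6555c3, bulk_6556c4, bulk_6620c1 and bulk_6694c2. In clones bulk_6555c3, bulk_6499c4 and bulk_6556c4 the own later library had rank 11, 9 and 11 of 17. Chi-squared values per gene between pairs of the 4 highest libraries were 3.35 to 8.74, against 84.5 to 398.2 between first and later libraries of 1 clone. The 3 pairs of the same class from 1 clone had 53.0 to 128.0, a range that overlaps that of first against later. The highest of them was between the later libraries of clone bulk_2838c3.

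The spread between clones was about the same in both classes as a whole. The median SD of log2 levels over the 15 clones was 0.428 in first-tumour libraries and 0.421 in later-tumour libraries. Over the 4 highest clones alone it was 0.112 in first-tumour libraries and 0.332 in later-tumour libraries, and 86.6% of genes varied less in first-tumour libraries. Over all 15 clones, 54.5% of all genes varied less in first-tumour libraries, as did 19 of 20 ductal genes and 15 of 16 glycolysis and hypoxia genes. Liver and heart lists and collagen matrix genes had wider median SDs, with 19 of 20 matrix genes varying more in first-tumour libraries. Of 34 hepatocyte genes, however, 14 varied less in first-tumour libraries. None of these differences in spread was tested.

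Whether the difference between first and later tumours depended on the T cell phenotype was asked with an interaction of high against low clones. The model had no term for the liver and heart level. This level was 4.76% to 101.2% in first-tumour libraries of high clones and 26.9% to 101.4% in those of low clones. Effects of phenotype and of this level were therefore not separated. EdgeR called 0 of 16540 genes (0%), with 1812 genes (10.96%) at an unadjusted p under 0.05 and a smallest adjusted p of 0.445, and DESeq2 called 2. The 2 genes with the smallest p were Fam43a and Pcdh7. Fam43a differed by -0.26 ± 0.31 in high clones (SD, n = 7) and by -1.11 ± 0.27 in low clones (n = 6), an interaction of 0.83 (SE 0.16, edgeR adjusted p = 0.445). Pcdh7, a protocadherin, differed by 2.11 ± 1.33 in high clones and by 0.00 ± 0.98 in low clones, an interaction of 2.42 (SE 0.53, edgeR adjusted p = 0.445). Both were called by DESeq2, with adjusted p-values of 0.0226 for Fam43a and 0.0189 for Pcdh7, and by edgeR with no filter on low counts, with adjusted p-values of 0.0304 and 3.2e-07.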

How the data were processed

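Bulk tumour RNA was measured in 37 libraries, of which 33 enter the comparison. Per the submitters' processing notes, STAR, featureCounts and the build mm10 were used, with versions, annotation, strand setting and multi-mapping rule not given in the sources used here. The deposited table holds the authors' read counts per gene, whole numbers that were not normalised, for 39017 genes, of which 37607 could be placed by identifier in the GENCODE M21 annotation (GRCm38) for coordinates and exon lengths. Counts were tested with edgeR 4.0.16 (R 4.3.3): TMM scaling, the default filter by class (16540 genes kept), clone as a block and a two-sided quasi-likelihood test, with Benjamini-Hochberg adjustment over all genes and a threshold of 0.05. Clones pair the libraries because those of 1 clone come from the same cell line. The interaction took the class term for each phenotype. The code was tested on simulated data. Alternatives were no clone block, RLE factors, total counts alone, DESeq2 1.42.0, no filter, other placements of the second library of clone bulk_2669c4, summed counts, and leaving clones out. Standard errors (SE) are the absolute log2 difference divided by the root of the F statistic. Spread used log2 CPM with a prior count of 2. The libraries and the 47 gene lists (651 memberships) were chosen with earlier results of these data known. Named genes are the 4 markers, up to 3 called genes of each list by mean level, or its smallest p, the 10 most abundant unlisted called genes per direction at 2-fold or more, and the 2 smallest interaction p-values. Other genes named were chosen after their values were seen.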

Additional observations from a re-analysis of the deposited data

Results flagged for a closer look

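Signal of the same liver and heart genes appeared in libraries outside the comparison, above the highest level of any later-tumour library, 0.0835 CPM of Myh6. The library titled no1 of low clone bulk_6422c1, which has no later library here, held 565.6 CPM of Myh6. Of the 3 libraries with no phenotype label, the no1 libraries of clones bulk_6883c1 and bulk_6883c4 held 26.9 and 185.0 CPM, and the no2 library of clone bulk_7062c3 held 0.0635 CPM.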

How the results depend on the processing

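Without the clone block, and so without the pairing by clone, 2633 genes were higher, 3909 lower and 0 called for the interaction, and Stmn2 and Gkn2 reversed, to -0.99 and -0.014. With the placement of the second library of clone bulk_2669c4 by its title, 4200 were higher and 3809 lower. Without it the counts were 4357 and 3982, with counts summed per clone and class 4243 and 3860, with no filter 4725 and 4454, without the 3 lowest clones 5166 and 3496, and without the 4 highest clones 3230 and 3517. Leaving out each clone in turn gave 3254 to 4436 higher and 3779 to 5128 lower. The interaction count became 54 with no filter, which adds low genes, 2 with DESeq2, and 0 to 1 with each clone left out. The median difference in spread, 0.0074, was -0.0068 over genes with at least 10 CPM and -0.221 over the 4 highest clones alone, a setting chosen after the data were seen; the cause was not tested. Of 3573 values for 143 named genes over 25 settings, 3279 kept direction and call, 288 lost the call, 4 gained one and 2 reversed, and 85 genes kept both throughout. Depth of 7.39 M in the shallowest library limits genes near 0, and p-values do not allow for the likeness of first-tumour libraries.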

Other observations

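Of 18 nuclear genes of the respiratory chain 3 were higher and 6 lower in first-tumour libraries with TMM, against 6 higher and 4 lower with RLE and 7 and 4 with total counts alone or DESeq2. The TMM counts lie near the shares of all genes, 21.8% higher and 30.5% lower. Uqcrc2, a core subunit of complex III, was higher in 15 of 15 clones (log2 difference 0.51, SE 0.07, edgeR adjusted p = 2.35e-06), and Cox4i1, a subunit of cytochrome oxidase, was lower in 14 of 15 (-0.47, SE 0.07, edgeR adjusted p = 7.75e-06). Of 12 genes encoded in mitochondria 2 were higher and 1 lower with TMM, and 7 and 1 with DESeq2. Of 11 replication-dependent histone genes, which are near-identical copies, 3 were higher and 0 lower.

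Of 10 smooth muscle and pericyte genes 3 were higher and 4 lower with TMM, and 3 and 1 with total counts alone. Of 12 genes of the mesenchymal state 1 was higher and 2 lower, and of 9 genes of cytotoxic cells 0 were higher and 1 lower. Of 5 epidermal genes 1 was higher and 3 lower, of 8 stomach genes 2 and 1, of 3 fetal genes 2 and 0, and of 3 brown fat genes 0 and 1. With DESeq2 5 stomach genes were higher, and without the 4 highest clones 0 fetal genes were. The stomach gene Gkn2 lost its call in several settings, such as leaving out clone bulk_2669c4 (edgeR adjusted p = 0.151).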
